A study of Bos taurus with 60 samples.

Results

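The most recently numbered cattle miRNAs in the data were those with names from miR-11900 to miR-12100, with any letter or arm suffix. The name alone chose them, without any measured value, and 97 of the 1030 mature miRNAs carried such a name, from bta-miR-11971 to bta-miR-12064. They were measured by small RNA sequencing of liver from 60 steers, with 1 library per steer, in 20 Angus, 20 Charolais and 20 Kinsella Composite animals. Angus and Charolais were purebred populations, and the Kinsella Composite came from Angus, Charolais or hybrid bulls bred to a hybrid dam line. Within each breed the labels gave 6 steers as low-RFI and 6 as high-RFI, and gave no RFI group for the other 8. RFI, residual feed intake, is the feed an animal eats beyond what its weight and growth predict, so that low-RFI steers are the feed-efficient ones. By the study's methods, the sampled steers had the highest and lowest RFI values measured in their breed. The 6 low-RFI and 6 high-RFI steers were extremes chosen also for consistent miRNA expression within their breed. The RFI groups compared below were thus not picked by RFI alone. All steers were castrated males finished on the same diet of barley grain, barley silage and rumensin pellets. By the study's methods Charolais steers were the oldest and Kinsella Composite steers the youngest at slaughter, so that breed and age cannot be told apart. The labels also give a sire for each steer. Each breed had between 5 and 11 sires, so steers of a breed are not all unrelated. The sire label of Kinsella Composite steer 3 has a form unlike the rest and may stand for an unknown sire. It is counted as a sire here.

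A miRNA is a short RNA cut from a hairpin precursor and loaded into an Argonaute protein, where it guides repression of mRNAs. The seed, bases 2 to 8 from the 5′ end, makes most of the contact with a target, so that miRNAs of the same seed can share targets. The number in a miRNA's name follows the order in which sequences entered the catalogue, and says nothing of function. High numbers were given late, often to RNAs seen in few reads. The targets and roles of these miRNAs in cattle liver are not given here.

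The deposited values were raw read counts, given separately for every precursor of a mature miRNA. Counts of a miRNA with several precursors were averaged, and levels are given as CPM, that is counts scaled to a total of 1000000 per steer. Steers had between 1930859 and 6759381 averaged counts, so that 3 counts, the floor used here for a single library, equalled between 0.444 and 1.55 CPM. Values under the floor are printed as counted. Reads were PCR copies without molecular identifiers, so this floor covers counting error only. The hepatocyte miRNAs bta-miR-122 and bta-miR-192 summed to between 174377 and 291331 CPM over the 60 steers. Leukocyte miRNAs summed to between 1856 and 5147 CPM, the endothelial one lay between 9467 and 19391 CPM, and erythroid ones summed to between 3342 and 15117 CPM. Muscle miRNAs summed to between 13.5 and 59.7 CPM and biliary ones to between 109 and 348 CPM, and every marker listed was in the files. In bulk liver, fewer cells of a type and less RNA per cell cannot be told apart.

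Mature sequences were at hand for 36 of the 97 members, in the study's own list of 588 sequences. Pairs that differ by few bases are shown first, because their reads can be hard to assign, with the differing bases in capitals.
bta-miR-11971: ugaggggcagagagUgagaA
bta-miR-423-5p: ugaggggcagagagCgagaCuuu
bta-miR-11977: ugUcucaguucagcaggaaG
bta-miR-24-3p: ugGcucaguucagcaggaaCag
bta-miR-11986: uuGuccaaugaguuaguccuu
bta-miR-11986b: uuUuccaaugaguuaguccuuu
Over 20 aligned bases, bta-miR-11971 differed from bta-miR-423-5p by U15C and A20C, and bta-miR-11977 differed from bta-miR-24-3p by U3G and G20C. Over 21 aligned bases, bta-miR-11986 differed from bta-miR-11986b by G3U. Each token gives the first miRNA's base, the position from 1 at its 5′ end, and the other miRNA's base. The differing bases of bta-miR-11971 lie outside its seed, which it shares with bta-miR-423-5p. The differences at position 3 lie inside the seed, so bta-miR-11977 does not have the seed of bta-miR-24-3p, nor bta-miR-11986 that of bta-miR-11986b.

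Members that share a seed, with the seed in capitals, were bta-miR-11975 and bta-miR-11976, and bta-miR-12044 with the non-member bta-miR-1246.
bta-miR-11975: gGCGGCGGcggcgccggggc
bta-miR-11976: gGCGGCGGcggcgccggggcg
bta-miR-12044: aAUGGAUUacuucugauugcu
bta-miR-1246: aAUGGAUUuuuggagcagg
The sequence of bta-miR-11975 is that of bta-miR-11976 without its last base, with 0 mismatches over 20 bases. Both consist of G and C alone. The rest of bta-miR-12044 differed from bta-miR-1246, with 8 mismatches over 19 aligned bases. In all, 4 of the 36 members had the seed of another miRNA in the list, bta-miR-11971, bta-miR-11975, bta-miR-11976 and bta-miR-12044.

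The other members on which results turn are shown with their seeds in capitals.
bta-miR-11986b: uUUUCCAAugaguuaguccuuu
bta-miR-11995: uUGUCCUAcuucucagcugucu
bta-miR-12001: cCUGUGAGggcuucacccugga
bta-miR-11991: aUGUUCUGuaucuugauugua
bta-miR-11986c: gAACUGAGuccuuuggaaaaga
bta-miR-11985: cCCACCGCucuccucccgcc
Despite its name, bta-miR-11986c was not close to bta-miR-11986b in mature sequence, with 15 mismatches over 19 aligned bases. The members were 19 to 24 bases long with a median of 22, the median of the other miRNAs of the list as well. Their GC content ran from 28.6% in bta-miR-11991 to 100% in bta-miR-11975 and bta-miR-11976, with a median of 53.4% against 45.0% in the 552 other miRNAs. At least 70% GC was found in 6 of 36 members, or 16.7%, and in 19 of the 552 others, or 3.44%.

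For 95 of the 97 members a miRNA gene was listed by RefSeq on ARS-UCD2.0, which is not the build of the counts. Of these, 74 lay within the span of a protein-coding gene, without regard to strand. The gene of bta-miR-11986b lay within OCLN, which encodes the tight junction protein occludin, and within 1000 bases of the miRNA gene MIR7858. That of bta-miR-12004 lay within SELENOP, which encodes the selenium carrier that liver secretes into plasma. That of bta-miR-11985 lay within PARVB, that of bta-miR-11975 within MIA3 and that of bta-miR-12001 within ANKRD54. The gene of bta-miR-11977 lay within no listed gene, and that of bta-miR-11995 within a long non-coding RNA.

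Most members were rare or unseen in liver. Of the 97, 23 had 0 counts in every steer, or 23.7%, against 195 of the 933 other miRNAs, or 20.9%. Over all 60 libraries a count of 0 allows a mean of up to 0.0113 CPM. Another 23 members had a count, but under 10 in total. Counts were found in all 60 steers for 10 members, in 30 to 59 steers for 22 and in 1 to 29 steers for 42. A single steer showed between 24 and 40 of the 97, with medians of 31.0 in Angus, 31.5 in Charolais and 35.0 in the more deeply sequenced Kinsella Composite.

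By the rule of at least 10 counts in total over the 20 steers of a breed, Angus expressed 33 members, Charolais 33 and Kinsella Composite 35, and 32 were expressed in all breeds. The 4 others stood near the limit of 10. The totals of bta-miR-11986 were 18 counts in Angus, 21 in Charolais and 7 in Kinsella Composite. Those of bta-miR-11988, bta-miR-11994 and bta-miR-12059 reached the limit in Kinsella Composite alone, with 11, 12 and 10 counts, and were between 1 and 7 in the other breeds. With every steer thinned to 1930856 counts, the lowest total after rounding, the number was 29 for Angus, 28 for Charolais and 25 for Kinsella Composite. The larger number in Kinsella Composite was thus not seen at equal depth.

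Together the members held 0.0139% ± 0.00151 of the counts in Angus (SD, n = 20), 0.0120% ± 0.00140 in Charolais (SD, n = 20) and 0.0133% ± 0.00184 in Kinsella Composite (SD, n = 20), while they made up 9.42% of the names. Across steers the sum ran from 86.1 CPM in a Charolais steer to 180 CPM in Kinsella Composite steer 16. The largest part of it came from bta-miR-11986b, which gave 46.2% ± 6.82 of the members' counts in Angus, 42.0% ± 4.70 in Charolais and 44.4% ± 7.23 in Kinsella Composite (SD, n = 20 each).

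The level of bta-miR-11986b averaged 57.7 CPM ± 11.5 (SD, n = 60), which placed it 125th of the 1030 miRNAs. It ran from 34.6 CPM to 86.1 CPM with a median of 56.5, and its coefficient of variation of 19.9% was the smallest among members with a mean of at least 1 CPM. Next came bta-miR-11971 at 16.1 CPM ± 4.26, bta-miR-11995 at 12.9 CPM ± 3.98 and bta-miR-11977 at 7.23 CPM ± 2.26 (SD, n = 60 each). These 4 had at least 12 counts in every library. The ranges of bta-miR-11971, from 5.36 to 27.8 CPM, and of bta-miR-11995, from 3.79 to 21.0 CPM, overlapped widely. No library of either reached the lowest one of bta-miR-11986b.

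A group of 6 members then lay between 3 and 5 CPM, and their order cannot be read from these data because their ranges overlapped. They were bta-miR-12001 at 4.36 CPM ± 3.12, bta-miR-11991 at 4.21 CPM ± 1.44, bta-miR-12044 at 3.69 CPM ± 1.17, bta-miR-11986c at 3.28 CPM ± 1.1, bta-miR-11985 at 3.26 CPM ± 2.9 and bta-miR-11976 at 3.22 CPM ± 2.69 (SD, n = 60 each). In the median steer they had between 10 and 16.5 counts. The last with a mean of at least 1 CPM were bta-miR-11975 at 1.58 CPM ± 1.45, bta-miR-11989 at 1.55 CPM ± 0.651, bta-miR-11992 at 1.47 CPM ± 0.617 and bta-miR-12004 at 1.40 CPM ± 0.767 (SD, n = 60 each), which had 5 to 7 counts in the median steer. That makes 14 members with a mean of at least 1 CPM. A further 10 had means from 0.309 CPM in bta-miR-12034 to 0.875 CPM in bta-miR-11982. The 50 others that were seen at all had totals of 1 to 79 counts over the 60 steers and never more than 6 counts in a library, so that no difference between steers could be read for them.

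**Figure D1:**
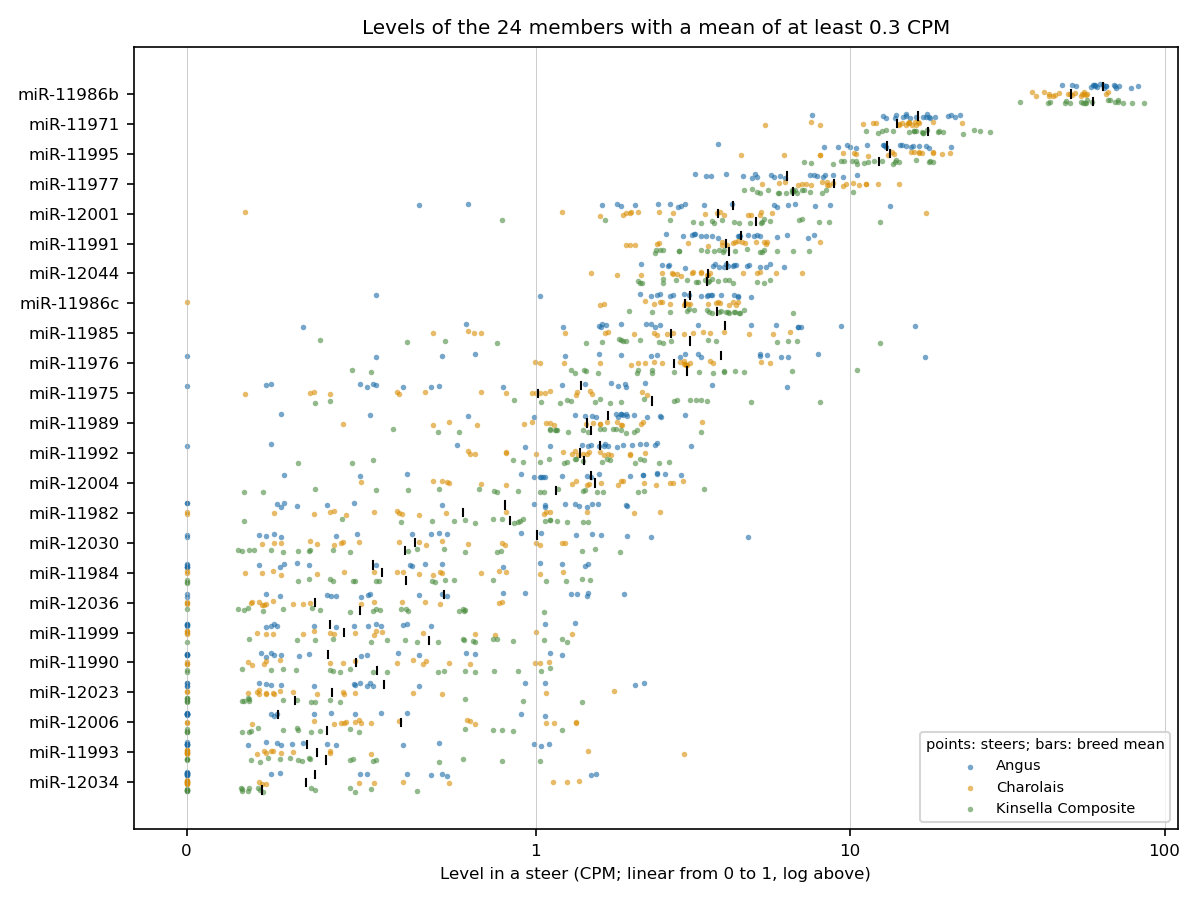
Level in CPM of each steer for the 24 members with a mean of at least 0.3 CPM, ordered by mean, with points in the colour of the breed and bars at the breed mean. The axis is linear from 0 to 1 CPM and logarithmic above. The points of bta-miR-11986b lie between 34.6 and 86.1 CPM, above those of every other member, while bta-miR-12001, bta-miR-11985 and bta-miR-11976 spread from under 1 CPM to over 15 CPM.

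Against miRNAs of other name classes, the members were neither the rarest nor common. At least 10 counts in every breed were found for 32 of 97 members, or 33.0%. The same was found for 77.9% of the 362 miRNAs numbered under 1000 or named let-7, 44.9% of the 49 numbered from 1000 up to miR-2283 and 68.2% of the 148 named miR-2284 or miR-2285. It was found for 16.2% of the 241 from miR-2286 to miR-2489 and for 33.1% of those with names between miR-2489 and the members. The median of the mean levels was 0.0367 CPM for the members, 0.00528 CPM for the class from miR-2286 to miR-2489 and 7.02 CPM for those under 1000 or named let-7. The highest mean of any member, 57.7 CPM, was below that of every other class, of which the lowest was 72.2 CPM. These are descriptions of name classes, with no test.

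Some members had single steers with high levels. A steer was called high where its level was at least 5 times the median of its breed. Among members with a mean of at least 1 CPM, 4 of 14, or 28.6%, had such a steer, against 8 of 367 other miRNAs, or 2.18%. The 4 were bta-miR-11985, bta-miR-11976, bta-miR-11975 and bta-miR-12001, of which bta-miR-11976 and bta-miR-11975 differ by 1 base and are not separate observations. Among all 24 members with a mean of at least 0.3 CPM, 9 had a high steer, or 37.5%, against 31 of 448 others, or 6.92%. These comparisons were not matched for level, since means of other miRNAs reached 233739 CPM and those of members 57.7 CPM. At a mean of at least 1 CPM, the median coefficient of variation was 38.1% for members. It ran from 27.0% to 49.7% over the other name classes. Several of the weaker calls rested on few counts, some of them under the floor of 3 counts, against breed medians under the floor. All high steers of bta-miR-12034 and bta-miR-12006 had between 2 and 7 counts, those of bta-miR-12023 had 4 to 8 counts, and bta-miR-11993 reached 11 counts in Charolais steer 2.

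In Angus, the same animal, steer 14, was highest for several members. Its level of bta-miR-11985 was 16.1 CPM, from 51 counts, where the 20 Angus steers had a median of 2.36 CPM and the next steer had 9.32 CPM. Its level of bta-miR-11976 was 17.3 CPM, from 55 counts, where the median was 2.93 CPM and the next steer had 7.91 CPM. Its level of bta-miR-11975 was 6.30 CPM, from 20 counts, where the median was 0.814 CPM and the next steer had 3.63 CPM. For each of these members steer 14 lay apart from the other Angus steers. For bta-miR-12030, whose gene lies within a long non-coding RNA, steer 14 had 4.72 CPM from 15 counts, where the median was 0.712 CPM and the next steer had 2.32 CPM. It was also highest for bta-miR-12023 with 2.20 CPM from 7 counts, 4.60 times the median. In total steer 14 was highest of its breed in 5 of the 24 members and in 14 of the 448 other miRNAs. Charolais steer 10 was likewise highest in 5 of the 24 members and in 12 of the 448 others, but in 1 member alone was it at least 5 times the breed median, where steer 14 was so in 6. Of these 6, bta-miR-12006 and bta-miR-12034 had 2 counts each in steer 14, under the floor of 3. As bta-miR-11975 and bta-miR-11976 differ by 1 base, they are not separate observations.

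Kinsella Composite steer 16 was highest for an overlapping set. It had 12.4 CPM of bta-miR-11985 from 53 counts, where the breed median was 2.04 CPM and the next steer had 6.75 CPM. It had 10.5 CPM of bta-miR-11976 from 45 counts, 4.49 times the median of 2.34 CPM. It was also highest for bta-miR-11975, at 8.02 CPM, and for bta-miR-12023, at 1.40 CPM from 6 counts. In this breed the level of bta-miR-11975 is an average that includes counts listed on the precursors of bta-miR-11976. It therefore partly repeats bta-miR-11976. On its own precursor, bta-miR-11975 was also highest in steer 16, at 3.04 CPM, where the breed median was 0.903 CPM. In total steer 16 was highest of its breed in 4 of the 24 members and in 37 of the 448 other miRNAs. Both steers were labelled high-RFI.

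The most abundant members did not stand apart in these animals. Steer 14 had 61.1 CPM of bta-miR-11986b, 0.970 times its breed median, 15.1 CPM of bta-miR-11971, 0.909 times the median, and 2.83 CPM of bta-miR-12001, 0.965 times the median. Steer 16 had 67.3 CPM of bta-miR-11986b, 1.19 times its breed median. Of the 6 members with a sequence of at least 70% GC and a mean of at least 0.3 CPM, 4 were at least 5 times the breed median in steer 14, with a median ratio of 5.58. They were bta-miR-11985 at 80.0% GC, bta-miR-11975 and bta-miR-11976 at 100%, and bta-miR-12034 at 89.5%, the last from 2 counts. The others were not high there, with 1 count of bta-miR-11982, at 73.9% GC, and 0 counts of bta-miR-12036, at 70.8% GC. In steer 16, 1 of these 6 members reached 5 times the breed median, and the median ratio was 3.55, with bta-miR-11975 as averaged. Below 70% GC, bta-miR-12006, at 47.6% GC, was 5.18 times the median in steer 14, but from 2 counts, under the floor of 3. No sequence was at hand for bta-miR-12030. The part of GC content in the high values was not tested. Among the 15 other miRNAs of at least 70% GC and a mean of at least 0.3 CPM, the median ratio to the breed median was 1.15 in steer 14 and 1.08 in steer 16, and none reached 5. This comparison was chosen after the values were seen.

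Of the marker lists, the summed erythroid miRNAs were highest of the Angus steers in steer 14, at 13036 CPM against a median of 8085 CPM, while in Kinsella Composite steer 16 they were at 6420 CPM against a median of 7521 CPM. Hepatocyte, leukocyte, endothelial, muscle and biliary sums of both steers lay inside the range of the other steers of their breed. The part of erythroid RNA in the high values of steer 14 was not tested.

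The high steers of bta-miR-12001 were others. Its lowest, median and highest levels were 0.666, 2.94 and 13.4 CPM in Angus, 0.166, 3.1 and 17.4 CPM in Charolais and 0.902, 4.61 and 12.4 CPM in Kinsella Composite. The highest were Angus steer 4, Charolais steer 1 and Kinsella Composite steer 15. In Charolais steer 1 the level came from 39 counts, was 5.62 times the breed median, and the next Charolais steer had 5.65 CPM. That steer also had the highest Charolais level of bta-miR-11991, at 8.04 CPM from 18 counts. Its library was the shallowest of the Charolais steers, with 2237959 counts, and it was highest of its breed in 86 of the 448 other miRNAs, more than any other of the 60 steers. At 3.57 CPM of bta-miR-11985 and of bta-miR-11976 it lay inside the range of its breed. The coefficient of variation over the 60 steers was 71.6% for bta-miR-12001, 88.8% for bta-miR-11985, 83.5% for bta-miR-11976 and 91.7% for bta-miR-11975 as averaged. It was between 19.9% and 54.7% for the other 10 members with a mean of at least 1 CPM.

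**Figure D2:**
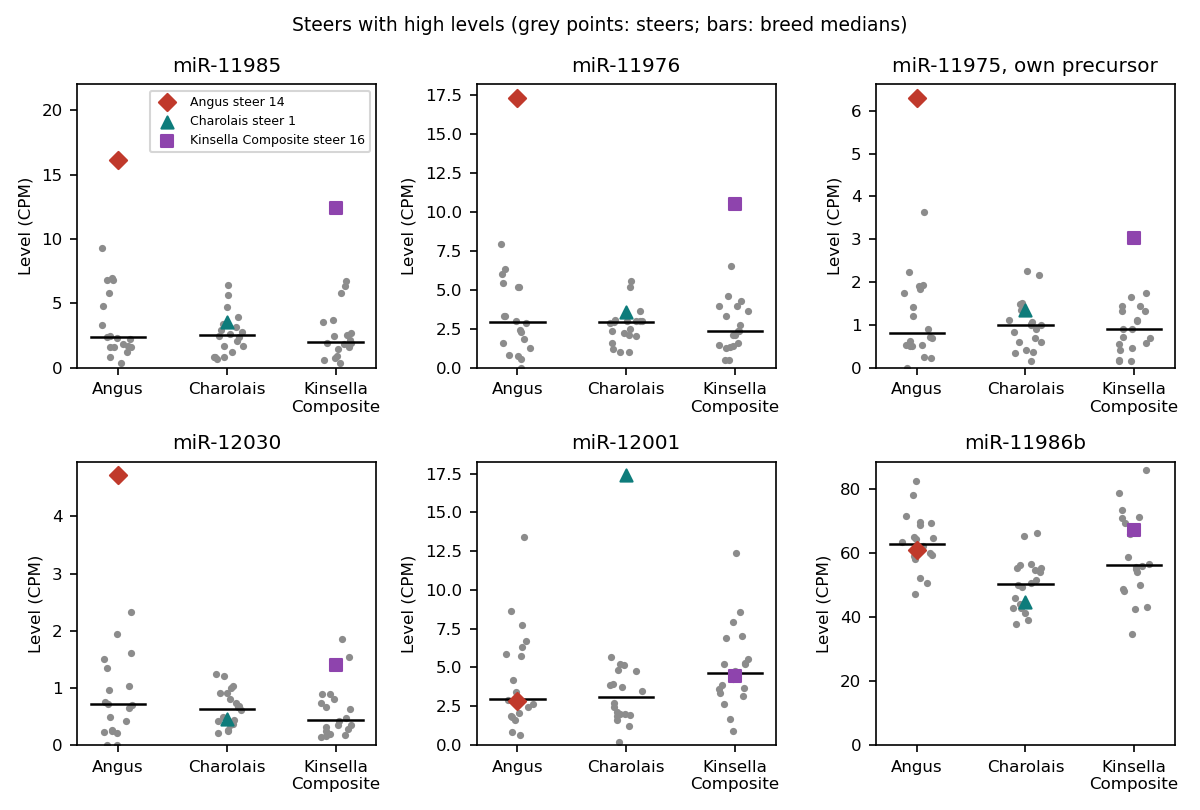
Level in CPM of 6 members in each breed, with grey points for steers, bars for the breed median, and 3 steers marked in every panel. Angus steer 14 lies at the top for bta-miR-11985, bta-miR-11976, bta-miR-11975 (counted on its own precursor) and bta-miR-12030, but near the median for bta-miR-12001 and bta-miR-11986b. Charolais steer 1 is highest for bta-miR-12001, and an unmarked Kinsella Composite steer is highest for bta-miR-11986b.

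The first comparison asked whether members differed between low-RFI and high-RFI steers of a breed. edgeR's quasi-likelihood test was fitted over all miRNAs that reached 1 CPM in 6 or more of the 12 steers, and the rule for a call was more than 1.5-fold with p under 0.05 before adjustment. In Angus, 14 members could be tested and 1 was called, where 2.68% of all 373 miRNAs tested were called. The called member was bta-miR-11985, which was lower in low-RFI steers. Its lowest, median and highest levels were 0.801, 1.64 and 5.81 CPM in the 6 low-RFI steers and 1.86, 6.84 and 16.1 CPM in the 6 high-RFI steers. In 4 of the 6 high-RFI steers its level was above every low-RFI steer, and the groups overlapped. Of these, steers 12 and 15 shared a sire, as did steers 14 and 19, so they are not independent animals. The log2 fold change was -1.29 ± 0.51 (SE), a 2.44-fold difference, with an unadjusted p-value of 0.0221 and a Benjamini-Hochberg adjusted p-value of 0.957.

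An exact two-sided permutation test over the 12 Angus steers gave p = 0.0606 for bta-miR-11985. Without steer 14 the log2 fold change was -0.93, with an unadjusted edgeR p-value of 0.0574, and the call was also lost without the low-RFI steers 6 (p = 0.0511) or 8 (p = 0.0533). With sire as a block it was -1.83 with p = 0.106. That estimate rests on sires with steers in both groups, those of steers 5 and 8 and of steers 12, 15 and 17. Sire and RFI group cannot be fully told apart in Angus. Elsewhere the estimate was 0.14 ± 0.41 (SE) in Charolais and -0.51 ± 0.61 (SE) in Kinsella Composite, where it was 0.16 without steer 16. The difference between breeds was not past the threshold in the interaction test (unadjusted p = 0.258, adjusted p = 0.992). Over the Angus groups, the summed erythroid miRNAs ran from 7442 to 12548 CPM in low-RFI steers, with a median of 11879, and from 5531 to 13036 CPM in high-RFI steers, with a median of 8500. Their part in the difference of bta-miR-11985 was not tested.

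In Charolais 0 of 14 members were called, where 2.41% of 373 miRNAs tested were called, and 0 members had an unadjusted p-value under 0.05. The largest estimate was that of bta-miR-11975, with a log2 fold change of 0.74 ± 0.39 (SE) and p = 0.0737, and an exact permutation p of 0.0519. Levels of bta-miR-11977, which looks like bta-miR-24-3p, ran from 7.01 to 12.3 CPM in low-RFI and from 5.25 to 9.70 CPM in high-RFI Charolais steers, with a log2 fold change of 0.34 ± 0.20 (SE) and an exact permutation p of 0.0541. In Kinsella Composite 0 of 14 members were called, where 1.82% of 385 were called. There 1 member had an unadjusted p-value under 0.05, bta-miR-11995, whose difference was under 1.5-fold. It ran from 10.4 to 18.3 CPM in low-RFI and from 7.49 to 14.3 CPM in high-RFI steers, with a log2 fold change of 0.37 ± 0.16 (SE), an unadjusted p-value of 0.0401, an adjusted p-value of 0.905 and an exact permutation p of 0.0628.

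The abundant bta-miR-11986b had log2 fold changes of -0.00 ± 0.13 in Angus, 0.14 ± 0.16 in Charolais and -0.15 ± 0.19 in Kinsella Composite (SE, 12 steers each). Medians of the log2 fold changes of tested members were 0.11 for Angus, 0.14 for Charolais and -0.11 for Kinsella Composite, beside 0.01, -0.00 and 0.03 over all miRNAs tested. Adjusted p-values of the members were between 0.857 and 0.997 in these 3 fits.

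**Figure D3:**
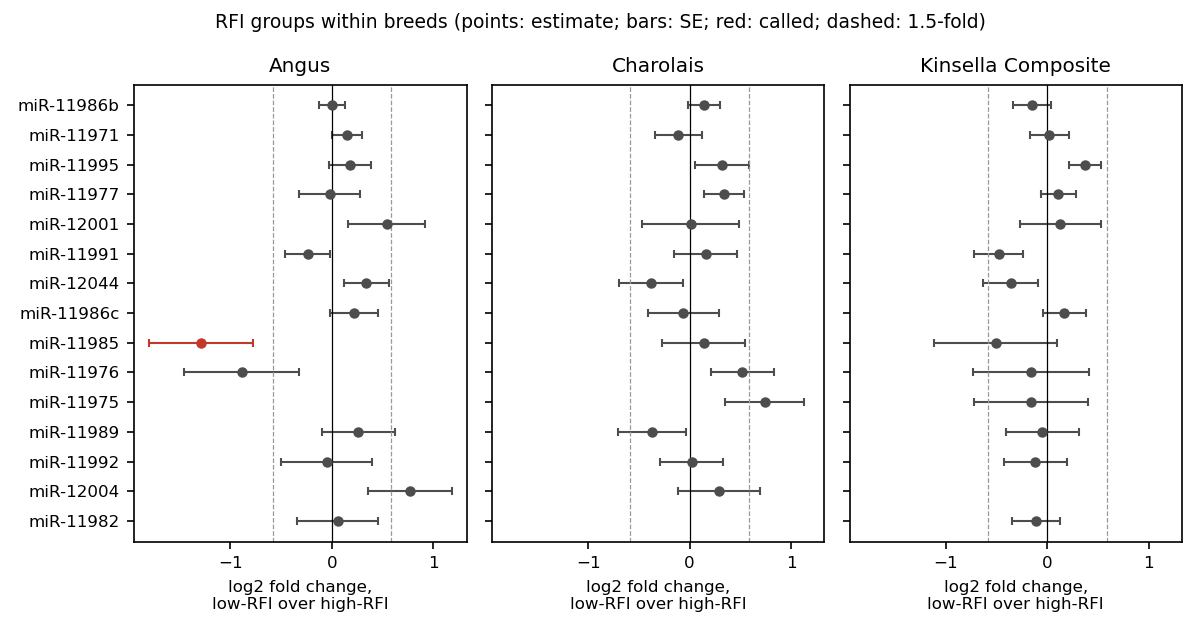
log2 fold change of low-RFI over high-RFI steers in each breed for the members tested, ordered by mean level, with SE bars, dashed lines at 1.5-fold and the called member in red. Only bta-miR-11985 in Angus, at -1.29, was called, and its estimates in Charolais and Kinsella Composite, at 0.14 and -0.51, have SE bars that cross 0.

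In a fit of all 36 steers with an RFI group and breed as a term, 15 members were tested and 0 were called, where 0.267% of 375 miRNAs were called. There was 1 member with p under 0.05 before adjustment, bta-miR-11995, at a log2 fold change of 0.28 ± 0.13 (SE), p = 0.0350 and adjusted p = 0.908. It was estimated higher in low-RFI steers of every breed, by 0.18 ± 0.21 in Angus and 0.32 ± 0.27 in Charolais besides Kinsella Composite (log2, SE). The estimate of bta-miR-11985 was -0.64 ± 0.33 (SE) with p = 0.0605. The interaction of RFI group with breed was past an adjusted p-value of 0.05 for 0 of 15 members, as it was for 0% of the 375 miRNAs tested, and the smallest unadjusted p-value of a member was 0.135.

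The second comparison asked which members differed between breeds over all 60 steers. Its fit had no term for sire, so half-sibs counted as separate animals and its p-values may be too small. With the miRNAs that reached 1 CPM in 10 or more steers, 17 members were tested and 3 differed at an adjusted p-value under 0.05, or 17.6%, where 20.9% of all 425 miRNAs tested differed. The share of members was thus close to that of all miRNAs. The 3 were bta-miR-11977, bta-miR-11986b and bta-miR-11975.

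Charolais steers had more bta-miR-11977. Its lowest, median and highest levels were 5.25, 8.48 and 14.3 CPM in Charolais, 3.2, 5.86 and 10.5 CPM in Angus and 4.58, 6.54 and 10.2 CPM in Kinsella Composite. The groups overlapped, and the Charolais median was above that of both other breeds. The means were 8.87 CPM ± 2.30, 6.28 CPM ± 2.14 and 6.56 CPM ± 1.33 (SD, n = 20 each). The adjusted p-value over breeds was 0.00121. Charolais exceeded Angus by a log2 fold change of 0.60 ± 0.14 (SE), 1.52-fold, with an adjusted p-value of 0.0133. It was the only member called between Charolais and Angus, where 0.941% of the 425 miRNAs were called by the rule for breeds, more than 1.5-fold with an adjusted p-value under 0.05. The 1.5-fold limit was passed narrowly, and with library size alone as the scaling the log2 fold change was 0.54, below it. Kinsella Composite was lower than Charolais by -0.50 ± 0.13 (log2, SE; adjusted p = 0.00425), which is 1.42-fold.

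The most abundant member, bta-miR-11986b, was on average lowest in Charolais. Its lowest, median and highest levels were 37.9, 50.4 and 66.3 CPM in Charolais, 47.2, 63.0 and 82.5 CPM in Angus and 34.6, 56.4 and 86.1 CPM in Kinsella Composite. The means were 50.3 CPM ± 7.95, 63.5 CPM ± 8.58 and 59.4 CPM ± 13.3 (SD, n = 20 each). The adjusted p-value over breeds was 0.0407. Each pairwise contrast was under 1.5-fold, and none passed an adjusted p-value of 0.05. Charolais against Angus gave -0.30 ± 0.09 (log2, SE; adjusted p = 0.0660) and Kinsella Composite against Charolais gave 0.18 ± 0.09 (adjusted p = 0.173). The difference over breeds was not past the threshold when every miRNA with any count was tested (adjusted p = 0.0512) or when libraries were thinned to equal depth (adjusted p = 0.0905).

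The third member, bta-miR-11975, was not counted alike in all breeds. It was listed on 1 precursor, its own, in Angus and Charolais. In the Kinsella Composite files it was listed on that precursor and on both precursors of bta-miR-11976, so that 3 counts were averaged. On both precursors of bta-miR-11976, the counts of bta-miR-11975 and bta-miR-11976 were the same number in all 20 Kinsella Composite steers. On its own precursor bta-miR-11975 had 4.55 ± 4.41 counts in Angus, 4.25 ± 2.51 in Charolais and 5.05 ± 3.30 in Kinsella Composite (SD, n = 20 each). On those of bta-miR-11976 the Kinsella Composite steers had 15.2 ± 9.99 counts.

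As averaged, bta-miR-11975 was at 2.35 CPM ± 1.77 in Kinsella Composite, 1.39 CPM ± 1.45 in Angus and 1.01 CPM ± 0.563 in Charolais (SD, n = 20 each). The adjusted p-value over breeds was 0.00799. Kinsella Composite exceeded Charolais by 1.08 ± 0.29 (log2, SE; adjusted p = 0.00524), the only member called in that contrast, where 7.06% of 425 miRNAs were called. Against Angus the difference was 0.78 ± 0.29 (log2, SE; adjusted p = 0.0635), and 0 members were called in that contrast, where 4.71% of 425 were called and 2 members had an unadjusted p-value under 0.05. Without the pairs listed only for Kinsella Composite, its mean there was 0.996 CPM ± 0.691 (SD, n = 20). The adjusted p-value over breeds was then 0.541, and the log2 fold changes turned to -0.09 against Charolais and -0.40 against Angus. The breed difference of bta-miR-11975 was therefore present only with the pairs listed for that breed alone. The other breed differences, of bta-miR-11977 and bta-miR-11986b, stayed past the threshold without those pairs (adjusted p = 0.00290 and 0.0331). For bta-miR-11976 itself, the means of 3.87 CPM ± 3.85 in Angus, 2.75 CPM ± 1.19 in Charolais and 3.03 CPM ± 2.33 in Kinsella Composite did not differ past the threshold (adjusted p = 0.395).

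**Figure D4:**
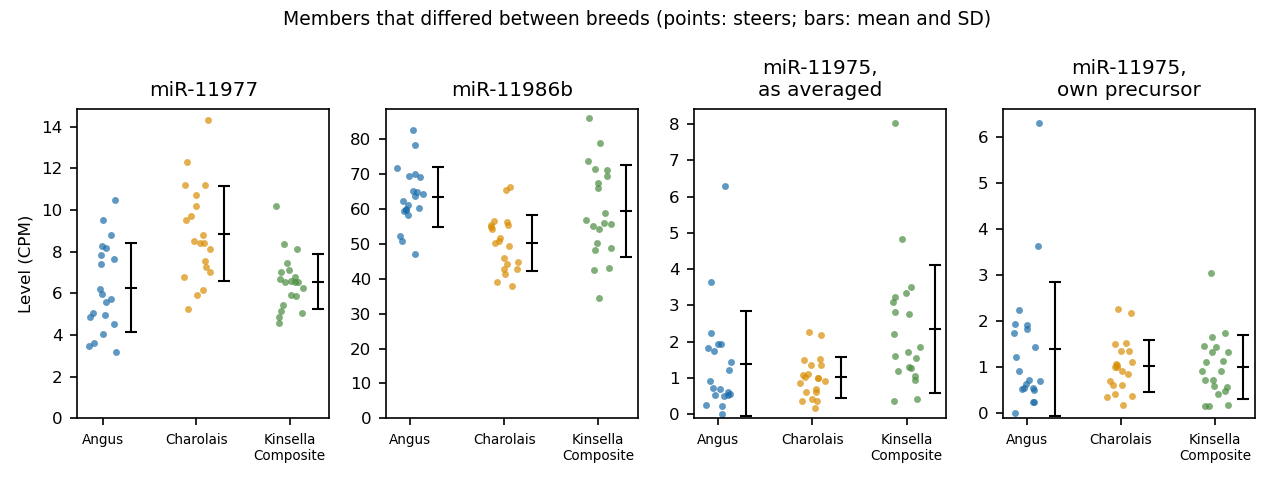
Level in CPM by breed of the members that differed between breeds, with 1 point per steer and bars for mean and SD. Charolais points of bta-miR-11977 center on 8.87 CPM, above the other breeds, and those of bta-miR-11986b on 50.3 CPM, below them, with overlap. The Kinsella Composite points of bta-miR-11975 center on 2.35 CPM as averaged over 3 precursors and on 0.996 CPM on its own precursor.

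The single high steers and the sires were set side by side. Of 23 sires, 9 had at least 3 sampled progeny, 43 steers in all. A fit of the differences between these sires within breeds tested 16 members, and 0 passed an adjusted p-value of 0.05, where 0.484% of 413 miRNAs did. At an unadjusted p-value under 0.05 there was 1 member, bta-miR-11976 (p = 0.0304, adjusted p = 0.359), followed by bta-miR-11985 (p = 0.0579, adjusted p = 0.427) and bta-miR-12001 (p = 0.0758, adjusted p = 0.482). Angus steer 14 had 2 paternal half-sibs in the data, with 1.86 and 6.84 CPM of bta-miR-11985 where it had 16.1. For bta-miR-11976 these half-sibs had 0.827 and 7.91 CPM where steer 14 had 17.3, and 7.91 CPM was the next highest Angus level. Charolais steer 1 had 7 half-sibs, with 1.60 to 4.83 CPM of bta-miR-12001 where it had 17.4. No other sampled steer shared the sire of Kinsella Composite steer 16. The 8 steers of the largest Kinsella Composite family had 3.34 to 8.59 CPM of bta-miR-12001, and the 6 of the largest Angus family had 0.666 to 2.99 CPM. These families are of different breeds, so sire and breed cannot be told apart between them. Other families overlapped them, with 1.62 to 7.74 CPM in an Angus family of 5 and 1.66 to 12.4 CPM in a Kinsella Composite family of 3.

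Because several members look like abundant miRNAs, their levels were compared over the 60 steers for 6 pairs. On the log2 CPM scale, with permutation p-values from 100000 resamples and Benjamini-Hochberg adjustment over the 6 pairs, 3 pairs were correlated. How often miRNAs of unlike sequence correlate to the same degree over these steers was not tested. The level of bta-miR-11977, with a mean of 7.23 CPM, rose with that of bta-miR-24-3p, which at 530 CPM was 73.3 times higher. Pearson's r was 0.51 (permutation p = 5e-05, adjusted p = 0.00015) and Spearman's rho was 0.50 (permutation p = 7e-05, adjusted p = 0.00021), and r was 0.43 without the 2 steers farthest from the median. Within breeds r was 0.52 in Angus, 0.68 in Charolais and 0.84 in Kinsella Composite.

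The level of bta-miR-11971, with a mean of 16.1 CPM, rose with that of bta-miR-423-5p, which at 964 CPM was 59.9 times higher. Pearson's r was 0.42 (permutation p = 0.00077, adjusted p = 0.00154), Spearman's rho was 0.41 (permutation p = 0.00139, adjusted p = 0.00278), and r was 0.51 without the 2 farthest steers. Within breeds r was 0.65 in Angus, 0.54 in Kinsella Composite and 0.25 in Charolais, where the permutation p of 0.288 missed the threshold and r without the 2 farthest steers was 0.51. The third pair was bta-miR-11975 with bta-miR-11976, at an r of 0.78 (permutation p = 1e-05, the smallest these resamples can give, adjusted p = 6e-05), a rho of 0.73 (permutation p = 1e-05, adjusted p = 6e-05), and an r of 0.72 without the 2 farthest steers. In Kinsella Composite, where the counts were shared, r was 1.0. Without the pairs listed only there it was 0.89 within that breed and 0.83 over the 60 steers, beside 0.81 in Angus and 0.86 in Charolais.

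For the other 3 pairs no relation was detected. Between bta-miR-12044 and bta-miR-1246, which share a seed but little more, r was 0.16 (permutation p = 0.234, adjusted p = 0.280) and rho was 0.11 (permutation p = 0.410, adjusted p = 0.492). Between bta-miR-11986b and bta-miR-11986c r was 0.09 (permutation p = 0.489, adjusted p = 0.489) and rho was 0.04 (permutation p = 0.773, adjusted p = 0.773). Between bta-miR-11986 and bta-miR-11986b, which differ at 1 base but by 299 times in level, r was 0.21 (permutation p = 0.112, adjusted p = 0.167) and rho was 0.20 (permutation p = 0.133, adjusted p = 0.199). With 46 counts of bta-miR-11986 in 26 of 60 steers, a relation was hardly detectable at this depth. Without the 2 farthest steers r was 0.16, 0.06 and 0.15 for these pairs. How reads were assigned between miRNAs of like sequence was not tested.

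**Figure D5:**
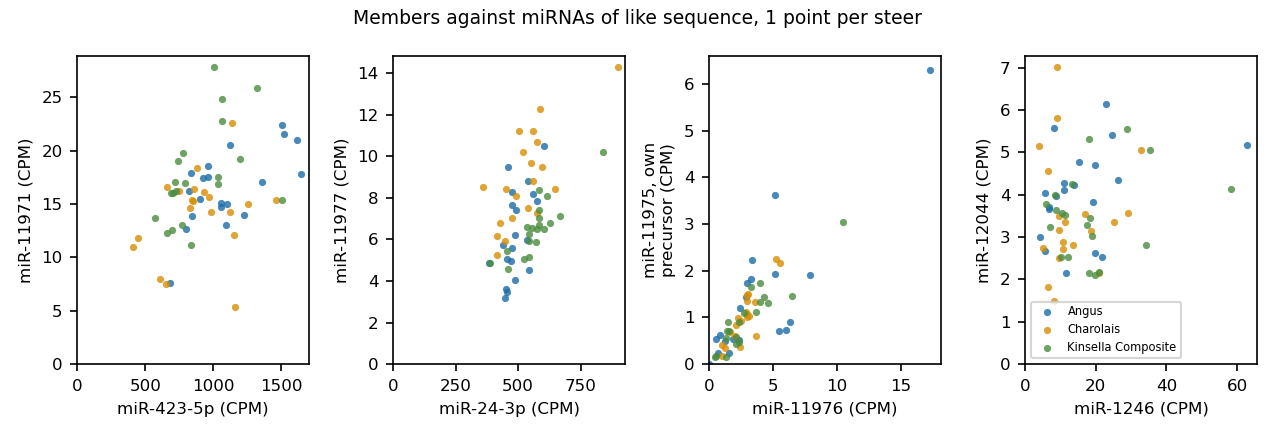
Level in CPM of 4 members on the y axis against a miRNA of like sequence or the same seed on the x axis, with 1 point per steer in the colour of its breed. The points rise together for bta-miR-11977, bta-miR-11971 and bta-miR-11975 (counted on its own precursor), with r of 0.51, 0.42 and 0.83, and scatter for bta-miR-12044 and bta-miR-1246, with r of 0.16.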

How the data were processed

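One small RNA library was made from the liver of each of 60 steers. The authors trimmed adapters (cutadapt 1.16), removed reads of other small RNAs, mapped reads to the UMD3.1 genome (Bowtie 1.1.1), counted known bovine miRNAs on their precursors with miRDeep2, and deposited these raw counts. Grouping followed the breed, RFI group and sire in the labels. The labels do not give the sequencing pool.

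Counts of a miRNA from several precursors were averaged, and rounded for tests. edgeR 4.0.16 (R 4.3.3), with TMM scaling and the quasi-likelihood F test, was fitted over all miRNAs that passed the filter on low counts, with Benjamini-Hochberg adjustment over all of them. The procedure was tested on simulated counts in which no single high steers were set, so that test does not cover them. For exact permutation tests, log2 CPM (prior count 0.5) of 12 steers was relabelled in all 924 ways, which can give no p below 0.00216. Alternatives used DESeq2 1.42.0, other scalings, filters, precursor sums, thinning, sire and title number as blocks, and left-out steers. Other computations used Python 3.11.15 with numpy, scipy, pandas and matplotlib.

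The members, lists and comparisons were chosen with earlier results of these data known. Members with a mean of at least 1 CPM, called in a comparison, with a mean of at least 0.3 CPM and a steer at least 5 times its breed median, or with the seed or nearly the sequence of another miRNA were named. Others are named where they were expressed in only some breeds or where a GC-rich contrast needed them, chosen after their values were seen. Sequences were called near-identical at up to 2 mismatches over at least 16 aligned bases.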

Additional observations from a re-analysis of the deposited data

Results flagged for a closer look

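For the 14 members with a mean of at least 1 CPM, the highest and lowest steer of each RFI group of 6 was compared with the rest of the group. A steer was listed where its gap to the nearest other steer, as a part of the group's range, passed Dixon's critical value for 6 samples. Chance alone gives this in about 1 in 20 groups of independent, normally distributed values. It happened in 13 of 84 groups, or 15.5%. Levels from few counts need not be normally distributed, and the groups of different members share steers. Other miRNAs were not put through this rule, so the share is not read as an excess among the members.

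Among Angus high-RFI steers, steer 14 stood above the others for bta-miR-11985, with 16.1 CPM where the others had 1.86 to 6.95 CPM, and for bta-miR-11975, with 6.30 CPM where the others had 0.497 to 1.92 CPM. Steer 12 had 82.5 CPM of bta-miR-11986b where the others had 59.3 to 63.7 CPM, and steer 5 had 0 counts of bta-miR-11992 where the others had 1.40 to 1.89 CPM. Among Angus low-RFI steers, steer 3 had 21.0 CPM of bta-miR-11995 where the others had 12.7 to 15.6 CPM, and steer 17 had 0.807 CPM of bta-miR-11989, from 2 counts, where the others had 1.87 to 2.50 CPM.

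Among Charolais low-RFI steers, steer 1 had 17.4 CPM of bta-miR-12001 where the others had 1.21 to 5.15 CPM, and 8.04 CPM of bta-miR-11991 where the others had 2.42 to 4.41 CPM. Steer 14 had 8.04 CPM of bta-miR-11995 where the others had 15.6 to 18.3 CPM, and steer 15 had 7.01 CPM of bta-miR-12044 where the others had 1.81 to 3.57 CPM. Among Charolais high-RFI steers, steer 6 had 7.49 CPM of bta-miR-11971 where the others had 14.3 to 16.6 CPM. In Kinsella Composite, high-RFI steer 16 had 12.4 CPM of bta-miR-11985 where the others had 1.62 to 3.73 CPM, and low-RFI steer 14 had 2.11 CPM of bta-miR-12004, from 11 counts, where the others had 0.634 to 0.890 CPM.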

How the results depend on the processing

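Counts of called members were small, so a single steer or filter moved them. For RFI in Angus, 1 member was called, against 3 with every miRNA of any count tested, 2 after thinning, 0 with at least 10 counts in every steer and 0 without steer 14. With sire as a block 1 was called, but it was bta-miR-12001. In Charolais 0 were called, against 1 after thinning and 3 with sire as a block. In Kinsella Composite 0 were called, against 1 after thinning. Across breeds 0 were called, against 3 with any count and 1 after thinning. Leaving out each steer gave 0 to 2 called members in Angus (2 without steer 2, 5 or 13, and 0 without 6, 8 or 14), 0 to 1 in Charolais (1 without steer 4, 5, 15 or 19), 0 to 1 in Kinsella Composite (1 without steer 2 or 5) and 0 to 1 across breeds (1 in 10 of 36 cases, without Angus steer 5 or 13, Charolais steer 9, 15 or 20, or Kinsella Composite steer 1, 8, 11, 19 or 20). The log2 fold change of bta-miR-11985 in Kinsella Composite ran from -0.94 to 0.16 with each steer left out and turned from -0.51 to 0.16 without steer 16.

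Between Charolais and Angus 1 member was called, against 0 with library size alone. Between Kinsella Composite and Angus 0 were called, against 1 with precursor counts summed and 1 without Angus steer 14 and Kinsella Composite steer 16. Between Kinsella Composite and Charolais 1 was called, against 0 with at least 10 counts in every steer and 0 without the pairs listed only for Kinsella Composite. That setting turned the log2 fold changes of bta-miR-11975 to -0.40 against Angus and -0.09 against Charolais. It and the removal of steers 14 and 16 were chosen after seeing the data.

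Counting any read as expression gave 63 members in Angus, 68 in Charolais and 67 in Kinsella Composite, and asking for at least 1 CPM in 10 of 20 steers gave 14, 14 and 14. The members' share of counts stayed between 0.0137% and 0.0141% in Angus, 0.0119% and 0.0122% in Charolais and 0.0131% and 0.0135% in Kinsella Composite with each steer left out. Within Charolais, r was 0.25 for bta-miR-11971 with bta-miR-423-5p and 0.47 (permutation p = 0.0352) for bta-miR-11986 with bta-miR-11986b, and within Angus it was -0.25 for bta-miR-11986b with bta-miR-11986c. The causes were not tested.

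The title numbers that breeds share do not pair animals. Deviations of same-numbered steers correlated at -0.29 to 0.32, with a median of 0.01, and 3 of 60 steers correlated best with their own number. With the number as a replicate block, 3 members differed between breeds, and 1, 0 and 1 were called in the pairwise contrasts, as without it. A mean of 1 CPM was reached by 14 of 97 members, and the floor of 3 counts lay at 0.444 to 1.55 CPM.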
